A study of Mus musculus with 8 samples.

Results

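Cajal-Retzius cells are among the first neurons of the cerebral cortex. They lie in its outermost layer, the marginal zone, and secrete reelin, a glycoprotein that guides the radial migration of later-born neurons. They come from small sources at the borders of the pallium, among them the cortical hem and the septum, and many of them die in the first weeks after birth. Described here are 9 genes that mark or specify these cells: Trp73, Lhx1, Lhx5, Ebf1, Ebf2, Ebf3, Calb2, Nhlh2 and Cacna2d2. They were taken by name, as the non-control probes whose gene name in the array files is one of the 9. Several of them are also made by other cells: Calb2 by interneurons, Ebf1 by striatal neurons and pericytes, and Trp73 by multiciliated ependymal cells.

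The arrays carried 13 probes of these genes among 55681 probes. A probe counts as measured here if 4 or more of the 8 arrays had it well above background. By this rule 12 of the 13 probes and 8 of the 9 genes were measured, against 19763 genes in all, and 7 genes were well above background on all 8 arrays. Ebf2 was the gene without a measured probe.

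The RNA came from the cortex of male pups of the inbred mouse strain C57BL/6NCr at postnatal day 1.5, from 4 control pups and 4 ischemia pups, with 1 one-colour array per pup. Mothers of the ischemia group were anesthetised at E16.5 and had their uterine arteries clipped shut for 14 min, which interrupts the blood supply of the whole uterus and not of the brain alone. No genetic change was part of the design. The labels do not say how control mothers were treated or which pups shared a mother, so p-values measure the spread between these pups. The question put to the data is whether the genes of these early neurons stood at another level after birth in cortex exposed to ischemia before birth.

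Between 47.6% and 51.7% of the spots of an array were well above background, 0 were saturated, and the arrays correlated with each other at 0.991 to 0.996 over all measured genes. Each group occupied its own row of the same slide, so row and group cannot be told apart. All 10 genes of a cortex identity list, which included Emx1, Neurod6, Tbr1 and Bcl11b, were well above background on 8 of 8 arrays. Levels below are log2 of the processed signal relative to the 75th percentile of the array, so that 0 is a probe as bright as that percentile. Each probe has its own brightness, and levels are compared between arrays, never between genes. In this bulk tissue, fewer cells of a type and less RNA per cell cannot be told apart.

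Of the 8 measured genes, 0 passed the threshold (limma, Benjamini-Hochberg adjusted p below 0.05 over all genes). Over all 19763 genes 1 passed, or 0.00506%, a probe of a region without a gene symbol. At an unadjusted p below 0.05 the count was 0 of 8, against 10.9% of all genes. In 0 of the 8 genes did the ischemia and control arrays fall into ranges that did not overlap, against 6.56% of all genes. The differences, ischemia minus control, were positive for 4 genes and negative for 4, while 43% of all genes had a positive difference. Their median was -0.01, beside -0.02 over all genes, and they ran from -0.13 for Lhx5 to 0.56 for Ebf1. With 1 probe per gene, the 95% intervals of 7 of the 8 lay between -1 and 1 on the log2 scale, and that of Ebf1 reached past 1. Among the 7 are Lhx1, which only 5 of 8 arrays had well above background, and Trp73, of which another, dimmer probe had an interval of -1.13 to 0.03. That dimmer probe was well above background in 4 of 4 control samples but in only 1 of 4 ischemia samples.

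**Figure D1:**
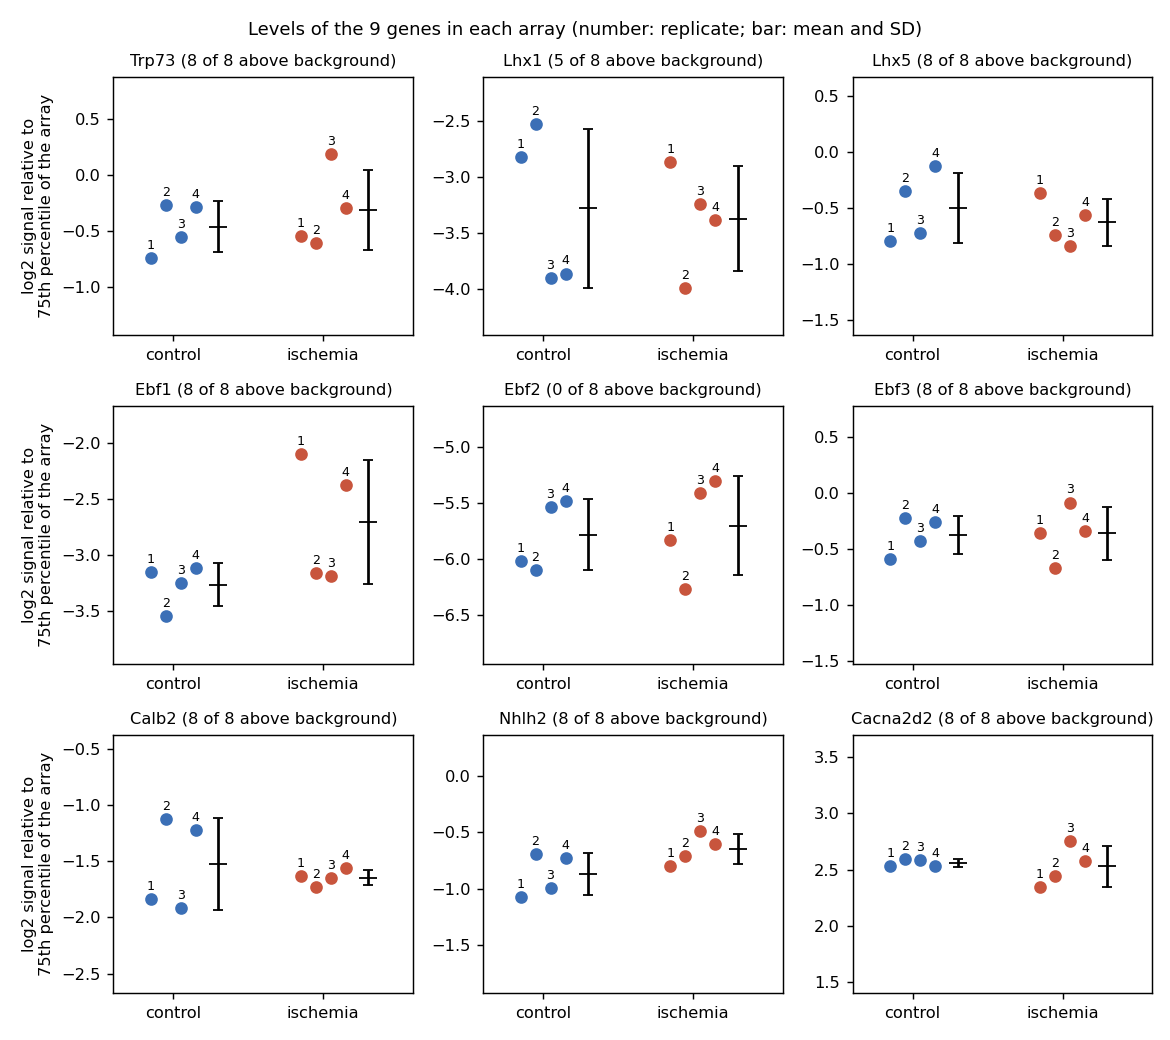
Level of each of the 9 genes in each array, as log2 signal relative to the 75th percentile of the array (vertical axis), for the control and the ischemia group; points carry the replicate number and bars show the mean and SD of 4 arrays. The groups overlap in every panel. Ebf2 was well above background on 0 of 8 arrays, so its points are background signal.

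The sequences of 3 probes show which stretch of transcript was read. Those of Trp73 and Lhx1 belong to genes whose probes can be set against each other, and the third is the single probe through which the calretinin transcript was measured. In the Trp73 sequence the capitals mark the 5 bases at its 3′ end whose genome positions are shared with a second Trp73 probe.
Trp73 probe A_55_P1988133: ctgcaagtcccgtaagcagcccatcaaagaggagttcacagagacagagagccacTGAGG
Lhx1 probe A_55_P2231244: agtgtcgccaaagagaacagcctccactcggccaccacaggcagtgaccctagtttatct
Calb2 probe A_52_P556433: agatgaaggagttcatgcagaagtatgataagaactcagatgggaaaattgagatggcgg
They are given 5′ to 3′ as in the array files. In the mouse build mm9 they lie at chr4:153433098-153433157, at chr11:84335442-84335594 and at chr8:112678555-112678614, all on the minus strand. The Lhx1 probe has 60 bases on a span of 153, so its sequence is split in the genome. Probes of different genes of the set shared runs of at most 9 bases.

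Trp73 encodes p73, a relative of the tumour suppressor p53 that is needed for the survival of Cajal-Retzius cells. Its brightest probe (A_52_P193555, chr4:153430443-153430502, minus strand) was well above background on 8 of 8 arrays. Control replicates 1 to 4 had levels of -0.74, -0.27, -0.56 and -0.29, and ischemia replicates 1 to 4 had -0.55, -0.61, 0.18 and -0.29. Ischemia replicate 3 stood above the other 7 arrays, and the remaining 3 ischemia arrays lay within the control range. The means were -0.46 ± 0.23 (SD, n = 4) in control and -0.32 ± 0.36 in ischemia, a difference of 0.15 (SE 0.19, 95% interval -0.28 to 0.58, limma adjusted p = 0.827). Without ischemia replicate 3 the difference was -0.02.

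The other probes of Trp73 did not show the high value of ischemia replicate 3. The probe A_52_P410636, at chr4:153433043-153433102, was well above background on all 8 arrays and had levels of -0.937, -1.001, -1.025 and -1.321 in control and of -1.022, -1.097, -1.050 and -1.005 in ischemia. Here the ischemia arrays lay close together inside the control range, and the difference was 0.03 (SE 0.09, 95% interval -0.18 to 0.23, adjusted p = 0.947 in the fit of all measured probes). The probe A_55_P1988133, whose sequence is printed above, was dim: it stood well above background in 4 of 4 control samples but in only 1 of 4 ischemia samples. It had levels of -3.22, -3.36, -2.69 and -3.45 in control and of -3.38, -3.77, -4.39 and -3.38 in ischemia. On this probe ischemia replicate 3 was the lowest of the 8 arrays, the array that was highest on the brightest probe. The difference on this probe was -0.55 (SE 0.25, 95% interval -1.13 to 0.03). Its 4 control arrays alone met the filter of 4 arrays, so the filter favours a negative difference here. No p-value is therefore given. The probes of this gene gave differences of both signs, but the negative sign rests on this probe. The mean of the 3 probes per array gave -0.12 and includes it. Whether the probes read different transcripts was not tested.

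p73 has 2 relatives in the mouse, p53 and p63, and both were measured. Trp53, the tumour suppressor, had levels of -1.74, -1.51, -1.74 and -1.48 in control and of -1.43, -1.30, -1.44 and -1.33 in ischemia. All 4 ischemia arrays lay above all 4 control arrays, with a difference of 0.24 (SE 0.08, limma adjusted p = 0.358), which did not pass. Trp63, known from stratified epithelia, differed by 0.03 (SE 0.15, adjusted p = 0.959). Among markers of ependyma, the ciliated lining of the ventricles, 5 of 6 genes were measured, 2 were higher and 3 lower, and the summed level ran from 3.41 to 5.41 in control and from 3.45 to 4.99 in ischemia, in multiples of the 75th percentile. In ischemia replicate 3, where the brightest Trp73 probe was highest, the mean of that list was -0.21 relative to the control mean. It was lower still, at -0.32, in control replicate 3. Foxj1, the master regulator of motile cilia, had its lowest level, 0.41, in ischemia replicate 3 and 0.46 in control replicate 3. Its difference between groups was -0.16 (SE 0.17, limma adjusted p = 0.785). Dnah5, a ciliary dynein, differed by 0.16 (SE 0.22, adjusted p = 0.843).

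Lhx1 and Lhx5 encode LIM homeodomain transcription factors of early cortical neurons. Lhx1 was close to background. Its brighter probe (A_52_P652336, chr11:84331888-84331947, minus strand) was well above background on 2 control and 3 ischemia arrays, with levels of -2.82, -2.52, -3.90 and -3.86 in control and of -2.87, -3.99, -3.24 and -3.38 in ischemia. The control arrays were split into a pair more than 1 log2 unit above the other pair, which is the widest spread in the set: the pooled SD within groups, 0.60, was larger than that of 97.8% of all genes. The difference was -0.09 (SE 0.36, 95% interval -0.92 to 0.74, limma adjusted p = 0.954), and leaving out single arrays moved it between -0.30 and 0.16. The second probe, with the sequence printed above, gave -3.34, -2.95, -3.79 and -3.75 in control and -3.46, -3.73, -4.33 and -3.21 in ischemia. It repeated the order of the control pairs, and its difference was -0.22 (SE 0.27, 95% interval -0.84 to 0.39, adjusted p = 0.831).

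Lhx5 was measured well, by the probe A_51_P403564 at chr5:120891144-120891203 on the plus strand. Levels were -0.80, -0.35, -0.72 and -0.13 in control and -0.36, -0.74, -0.84 and -0.57 in ischemia. The highest array was control replicate 4 and the lowest ischemia replicate 3, and the ranges overlapped over most of their length. Means were -0.50 ± 0.31 and -0.63 ± 0.21 (SD, n = 4 each), a difference of -0.13 (SE 0.17, 95% interval -0.51 to 0.25, limma adjusted p = 0.835). It was -0.0048 without control replicate 4 and -0.23 without control replicate 1, the ends of its range with single arrays left out.

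The wider LIM family and its cofactors, of which 15 of 18 listed genes were measured, had 0 genes past the threshold in either direction; 9 were higher and 6 lower, with a median of 0.03. Lmo2, a LIM-only adaptor, had the smallest p, with a difference of -0.21 (SE 0.09, limma adjusted p = 0.442). Lhx3, known from motor neurons and the pituitary, had the next, with 0.57 (SE 0.39, adjusted p = 0.646), and was well above background on 4 arrays. With normexp the Lhx3 difference was 0.080, and without control replicate 3 it was 0.29. Lhx8, Isl1 and Isl2 were well above background on 0 arrays.

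Ebf1, Ebf2 and Ebf3 encode early B-cell factors, helix-loop-helix transcription factors shared by neurons and several mesodermal lineages. Ebf1 had the largest difference of the set. Its probe (A_55_P2065513, chr11:44818438-44818497, plus strand), well above background on 8 of 8 arrays, had levels of -3.15, -3.54, -3.24 and -3.11 in control and of -2.10, -3.16, -3.19 and -2.37 in ischemia. The probe was dim all the same, with processed signals of 26.3 to 45.2 in control and of 40.8 to 83.7 in ischemia. The 75th percentile of the arrays was 305.6 to 393.3, and the brighter Lhx1 probe, close to background, had 21.4 to 53.1 in control. Ischemia replicates 1 and 4 stood 1.16 and 0.89 above the control mean, and replicates 2 and 3 stood 0.10 and 0.07 above it, inside the control range. The means were -3.26 ± 0.19 in control and -2.71 ± 0.55 in ischemia (SD, n = 4 each), a fold of 1.47 with a 95% interval of 0.985 to 2.20. On the log2 scale the difference was 0.56 (SE 0.25, interval -0.02 to 1.14, unadjusted p = 0.0575, limma adjusted p = 0.474), which did not pass. Without ischemia replicate 1 it was 0.35, and without replicates 1 and 4 together, a choice made after the values were seen, it was 0.09. With normexp in place of the scanner software's background correction it was 0.14.

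The arrays with high Ebf1 also had a high mean over listed genes of the meninges, the membranes that cover the brain. Of 11 listed meningeal genes 9 were measured, 8 were higher and 1 lower in ischemia, and 0 passed the threshold; the median difference was 0.35, beside -0.02 over all genes. As the mean of the 9 genes relative to the control mean, ischemia replicates 1 to 4 had 1.69, -0.18, 0.61 and 0.86, and the control arrays ran from -0.23 to 0.28. The list did not rise as a whole in replicate 4. There Ptgds, Col1a1, Slc6a13 and Igf2 lay above their control ranges, and Col1a2, Col3a1, Dcn, Lum and Foxc1 lay within theirs. Their summed level ran from 3.28 to 4.55 in control and from 3.55 to 15.9 in ischemia, in multiples of the 75th percentile. Aldh1a2 and Slc47a1 of that list were well above background on at most 1 array. Col1a1 was well above background on 4 arrays and Slc6a13 on 6. Ptgds, a prostaglandin synthase of the meninges, had levels of -1.02, -0.01, -1.16 and -0.96 in control and of 3.04, -0.27, -0.01 and 3.48 in ischemia, so that the arrays highest in Ptgds were those highest in Ebf1 (difference 2.35, SE 0.87, limma adjusted p = 0.393, and 0.65 without both arrays). Igf2, a growth factor, differed by 0.34 (SE 0.13, adjusted p = 0.400). Ischemia replicate 3, in which the meningeal mean was also high, did not have high Ebf1. The part of the meningeal genes in the Ebf1 values was not tested.

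Choroid plexus genes were high in ischemia replicate 4, which also had high Ebf1 and Ptgds. Ttr, the transthyretin gene of this tissue, reached 6.76 there and lay between -4.31 and -1.90 in the other ischemia arrays and between -3.56 and -3.21 in control (difference 2.74, SE 2.13, limma adjusted p = 0.694). Of 9 listed genes 5 were measured, 4 were higher, and the summed level ran from 2.93 to 3.15 in control and from 3.03 to 116.9 in ischemia. Enpp2, the autotaxin gene, differed by 0.28 (SE 0.15, adjusted p = 0.558). Without ischemia replicate 4 the difference was 0.29 for Ttr and 0.14 for Enpp2. As the mean of the 5 measured genes relative to the control mean, ischemia replicates 1 to 4 had 0.17, -0.47, 0.21 and 3.64. The part of choroid plexus in the Ebf1 and Ptgds values was not tested.

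Pericytes and striatal neurons are other cell types known for Ebf1. The mean of 9 measured pericyte genes, relative to the control mean, was -0.03, -0.06, -0.06 and -0.12 in ischemia replicates 1 to 4; 3 genes were higher and 6 lower, with 0 past the threshold, and the summed level ran from 12.4 to 14.0 in control and from 10.8 to 12.7 in ischemia. Among them Notch3, a receptor of mural cells, differed by -0.34 (SE 0.07, limma adjusted p = 0.227) and Higd1b by -0.34 (SE 0.08, adjusted p = 0.249), each with all 4 ischemia arrays below all 4 control arrays. For 9 measured striatal genes the mean was 0.32, -0.05, -0.24 and 0.07 in ischemia replicates 1 to 4, with 6 genes higher, 3 lower and a median of 0.01. Of these, Ppp1r1b, which encodes DARPP-32, differed by 0.13 (SE 0.18, adjusted p = 0.842). The striatal mean was thus highest in ischemia replicate 1, the array with the highest Ebf1, and close to the control mean in replicate 4. In ischemia replicate 1 Rarb, Tac1, Adora2a, Ppp1r1b and Rgs9 lay above their control ranges. Drd1 lay below its range there, and the other genes, among them Penk and Pde10a, lay within theirs. The part of either cell type in the Ebf1 values was not tested.

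**Figure D2:**
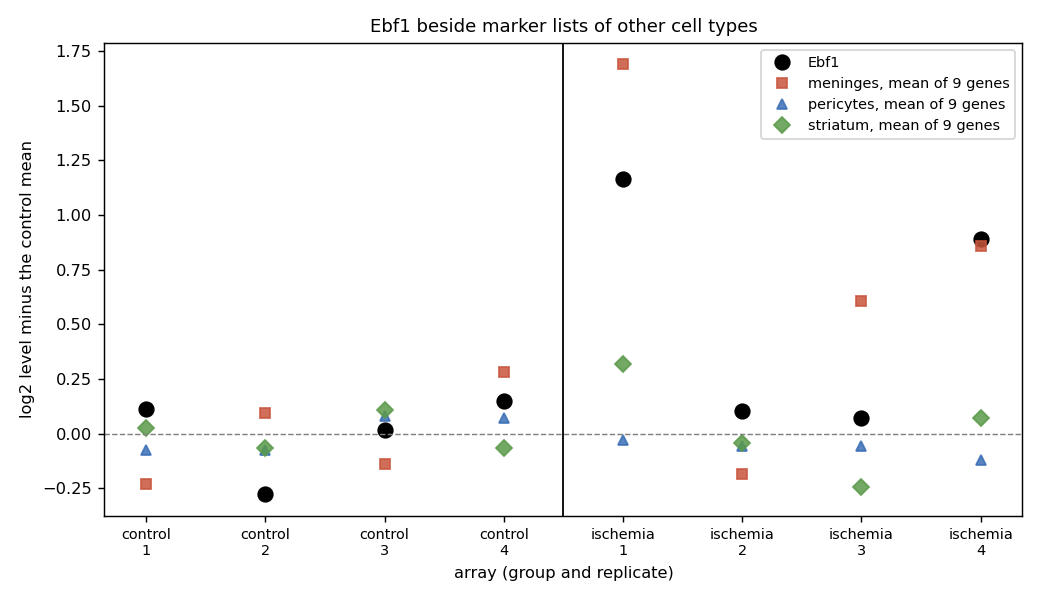
Ebf1 and the mean of the measured meningeal, pericyte and striatal marker genes in each array (horizontal axis), as log2 level minus the mean of the control arrays (vertical axis). In ischemia replicates 1 and 4 Ebf1 stands at 1.16 and 0.89 and the meningeal mean at 1.69 and 0.86, while the pericyte mean lies at -0.03 and -0.12.

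Ebf2 was represented by the single probe A_51_P386562 (chr14:68048145-68048204, plus strand), which did not count as measured: it was well above background on 0 of 8 arrays. Its processed signals were 4.47 to 8.77 in control and 4.72 to 9.97 in ischemia, where the 75th percentile of the arrays was 305.6 to 393.3. No difference is given for it, and these arrays leave its transcript undetected rather than absent.

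Ebf3, in contrast, was well above background on every array (A_51_P246543, chr7:144385490-144385549, minus strand). Levels were -0.59, -0.22, -0.43 and -0.26 in control and -0.35, -0.67, -0.09 and -0.34 in ischemia. The ischemia arrays held both the highest and the lowest value. The means, -0.37 ± 0.17 and -0.36 ± 0.24 (SD, n = 4 each), differed by 0.01 (SE 0.13, 95% interval -0.29 to 0.31, limma adjusted p = 0.982).

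Of the EBF relatives and partners, the fourth family member Ebf4 differed by 0.12 (SE 0.09, limma adjusted p = 0.688). Zfp521, a zinc finger protein that binds EBF factors, differed by 0.05 (SE 0.12, adjusted p = 0.931) on its brighter probe and by -0.30 on its other probe. With Zfp423, 3 of 3 were measured, 2 were higher and 0 passed.

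Calb2 encodes calretinin, the calcium-binding protein by which Cajal-Retzius cells and a class of interneurons are stained. Through the probe printed above it was well above background on all arrays, with levels of -1.84, -1.13, -1.92 and -1.22 in control and of -1.63, -1.73, -1.65 and -1.56 in ischemia. The control arrays formed a high pair, replicates 2 and 4, and a low pair, replicates 1 and 3, and the ischemia arrays all lay in the gap between the pairs. The SD was 0.41 in control and 0.07 in ischemia (n = 4 each); this difference in spread was not tested. The difference in means was -0.12 (SE 0.18, 95% interval -0.54 to 0.30, limma adjusted p = 0.861). Over the set the spread did not go one way, since the SD was larger in ischemia for 4 genes and larger in control for 4.

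The related calcium buffers Pvalb and Calb1, which carry EF-hand domains, did not pass the threshold. Pvalb, the parvalbumin gene, had levels of -1.34, -1.50, -1.51 and -1.84 in control and of -2.06, -2.28, -2.10 and -1.56 in ischemia, a difference of -0.45 (SE 0.16, limma adjusted p = 0.387). Ischemia replicate 4 lay among the control arrays and the other 3 lay below them. Calb1, the calbindin gene, differed by -0.05 (SE 0.19, adjusted p = 0.954). Of 14 listed genes of forebrain interneurons 13 were measured, 8 were higher and 5 lower, with a median of 0.06 and 0 past the threshold; their mean per ischemia array lay between -0.02 and 0.14 relative to the control mean. Htr3a, the serotonin receptor subunit of one interneuron class, had levels of -1.37 to -1.85 in control and of -0.99 to -1.22 in ischemia, without overlap (difference 0.45, SE 0.11, adjusted p = 0.242). Npas1, an interneuron transcription factor, differed by 0.13 (SE 0.06, adjusted p = 0.509).

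Nhlh2 encodes a helix-loop-helix factor of young neurons. Its probe (A_55_P2123902, chr3:101818350-101818409, plus strand) had levels of -1.07, -0.70, -0.99 and -0.72 in control and of -0.80, -0.71, -0.49 and -0.61 in ischemia. Ischemia replicates 3 and 4 lay above every control array, and replicates 1 and 2 lay within the control range. The means were -0.87 ± 0.19 and -0.65 ± 0.13 (SD, n = 4 each), a fold of 1.17. The log2 difference was 0.22 (SE 0.11, 95% interval -0.03 to 0.47, unadjusted p = 0.0743, limma adjusted p = 0.505), and it stayed between 0.15 and 0.28 when any one array was left out.

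Cacna2d2 encodes an auxiliary subunit of voltage-gated calcium channels, which also binds gabapentin. Its brighter probe (A_55_P1976734, chr9:107431245-107431304, plus strand) had levels of 2.53, 2.59, 2.59 and 2.53 in control and of 2.34, 2.44, 2.76 and 2.57 in ischemia. The control arrays agreed within an SD of 0.03, and the ischemia arrays spread to both sides of them with an SD of 0.18. The difference was -0.03 (SE 0.09, 95% interval -0.24 to 0.18, limma adjusted p = 0.936). A second probe, A_55_P2122879 at chr9:107431615-107431674, had levels of -2.68, -2.24, -2.58 and -2.21 in control and of -2.56, -2.77, -2.62 and -2.34 in ischemia. Unlike the first, it separated control replicates 2 and 4 from 1 and 3, and its difference was -0.14 (SE 0.13, 95% interval -0.45 to 0.16, adjusted p = 0.775).

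Among 15 other listed subunits of these channels 11 were measured, of which 8 were higher and 3 lower, with a median of 0.05 and 0 past the threshold. Cacna1d, a pore subunit of L-type channels, differed by 0.14 (SE 0.09, limma adjusted p = 0.622) on its brighter probe and by -0.25 on its other probe. Cacna1i, a pore subunit of T-type channels, differed by 0.09 (SE 0.07, adjusted p = 0.711) on its brighter probe and by -0.38 on its other probe.

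**Figure D3:**
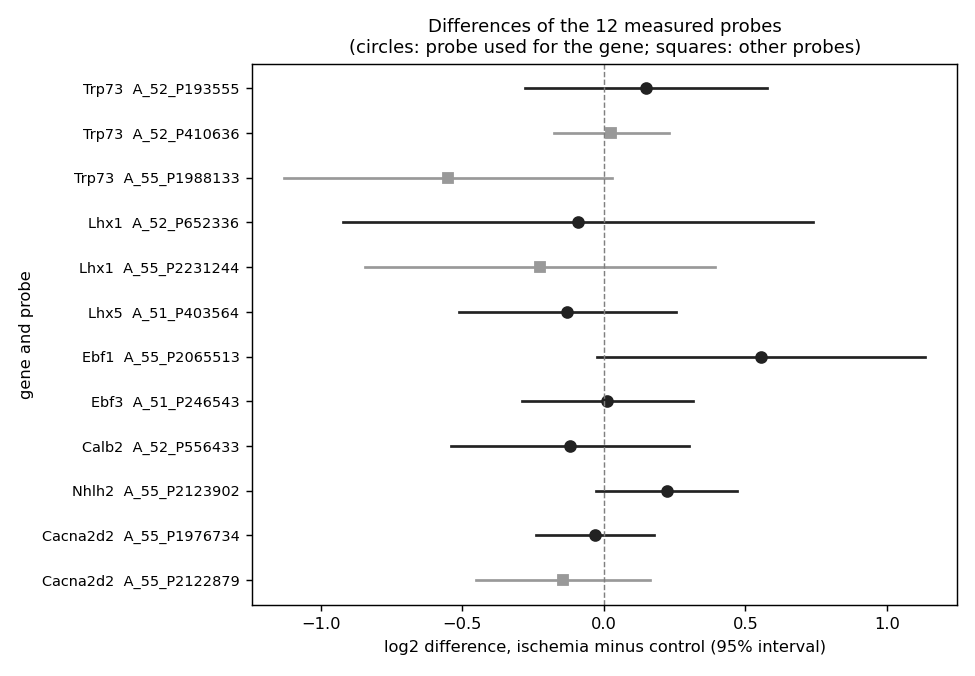
Difference between the groups, ischemia minus control on the log2 scale (horizontal axis), for the 12 measured probes of the set (vertical axis), with 95% intervals; circles are the probe used for a gene and squares its other probes. Every interval includes 0, and the probes of Trp73 lie on both sides of it, from -0.55 to 0.15. The Trp73 probe at -0.55 met the filter through its control arrays.

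Of 14 genes that accompany this set in Cajal-Retzius cells, all measured, 0 passed the threshold. Among them 10 were higher and 4 lower, with a median of 0.06. Over all genes 43% were higher and the median was -0.02. Reln, the reelin gene itself, had levels of -1.41, -0.99, -1.03 and -1.01 in control and of -1.16, -0.72, -0.65 and -1.25 in ischemia. Ischemia replicates 2 and 3 were the highest and replicates 1 and 4 lay between control replicate 1 and the other control arrays, with a difference of 0.16 (SE 0.16, limma adjusted p = 0.775). The difference in Reln was 0.061 without control replicate 1, 0.064 without ischemia replicate 3, 0.086 without ischemia replicate 2, 0.26 without ischemia replicate 4 and 0.42 without ischemia replicates 1 and 4 together. Spock1, a secreted proteoglycan gene, differed by 0.26 (SE 0.11, adjusted p = 0.443) and Emx2, a pallial homeobox gene, by 0.14 (SE 0.10, adjusted p = 0.674).

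Cajal-Retzius cells are held in the marginal zone by the chemokine Cxcl12, which the meninges secrete, through its receptor Cxcr4. Cxcr4 had levels of 0.01, 0.26, 0.02 and 0.09 in control and of 0.00, 0.06, 0.20 and 0.14 in ischemia, with nearly the same range in both groups and a difference of 0.0047 (SE 0.08, limma adjusted p = 0.988). Cxcl12 differed by -0.01 (SE 0.12, adjusted p = 0.985), and its second probe by 0.11. Ackr3, the scavenging receptor of the same chemokine, differed by 0.24 (SE 0.14, adjusted p = 0.577).

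The sources of these cells could be followed less well, since 5 of 10 listed genes of the cortical hem and other sources were measured, with 3 higher, 2 lower and 0 past the threshold. Lmx1a, Wnt3a, Wnt2b, Bmp6 and Dbx1 were each well above background on at most 2 arrays. Bmp7, a bone morphogenetic protein that the meninges also make, had levels of 0.59, 0.50, 0.32 and 0.50 in control and of 0.83, 0.59, 0.62 and 0.71 in ischemia. The groups met without overlap, ischemia replicate 2 lying just above control replicate 1, with a difference of 0.21 (SE 0.08, limma adjusted p = 0.406). Msx1, a target of such signals, differed by 0.41 (SE 0.21, adjusted p = 0.522), by 0.21 with normexp and by 0.24 without ischemia replicate 4. In the cortex identity list 7 of 10 genes were higher, with a median of 0.04; Fezf2, of deep-layer projection neurons, had levels of 1.71 to 1.92 in control and of 1.95 to 2.16 in ischemia (difference 0.23, SE 0.08, adjusted p = 0.362), and Neurod2 differed by 0.15 (SE 0.09, adjusted p = 0.610). In the list of thalamic genes, which mark tissue below the cortex, 5 of 5 measured genes were lower, with a median of -0.11 and 0 past the threshold. Tnnt1 differed by -0.26 (SE 0.13, adjusted p = 0.497) and Tcf7l2 by -0.16 (SE 0.08, adjusted p = 0.515), with 0.08 on the other Tcf7l2 probe.

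Several genes of the set ordered the control pups alike. In 5 of the 8 measured genes, Trp73, Lhx5, Ebf3, Calb2 and Nhlh2, control replicates 2 and 4 were both above replicates 1 and 3, an arrangement found in 18.7% of all genes. This arrangement was noticed after the values were seen and was not tested. The count takes the brightest probe of each gene. Of the other Trp73 probes, A_52_P410636 did not show the arrangement. On the dim A_55_P1988133 it was reversed, with control replicates 2 and 4 both below 1 and 3. The dimmer Cacna2d2 probe showed it, unlike the brighter one that was counted. With quantile normalization the count was also 5 of 8, beside 20.6% of all genes, and with scaling to the array median it was 6 of 8, beside 42.8%. The 14 companion genes held it in 7 cases, among them Reln, Emx2, Zic1 and Zic2, the 9 meningeal genes in 5 cases, the 5 ependymal genes in 4 and the 9 pericyte genes in 0. The part of meningeal or ependymal tissue in this arrangement was not tested.

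In the ischemia group 4 of the 8 genes had their highest value of all arrays in replicate 3 (Trp73, Ebf3, Nhlh2 and Cacna2d2), and Lhx5 had its lowest there. Replicate 2 held the lowest value of Lhx1 and Ebf3. Of the 8 genes, 7 were above their own mean over all arrays in control replicate 2 and 1 was in each of control replicates 1 and 3 and ischemia replicate 2.

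**Figure D4:**
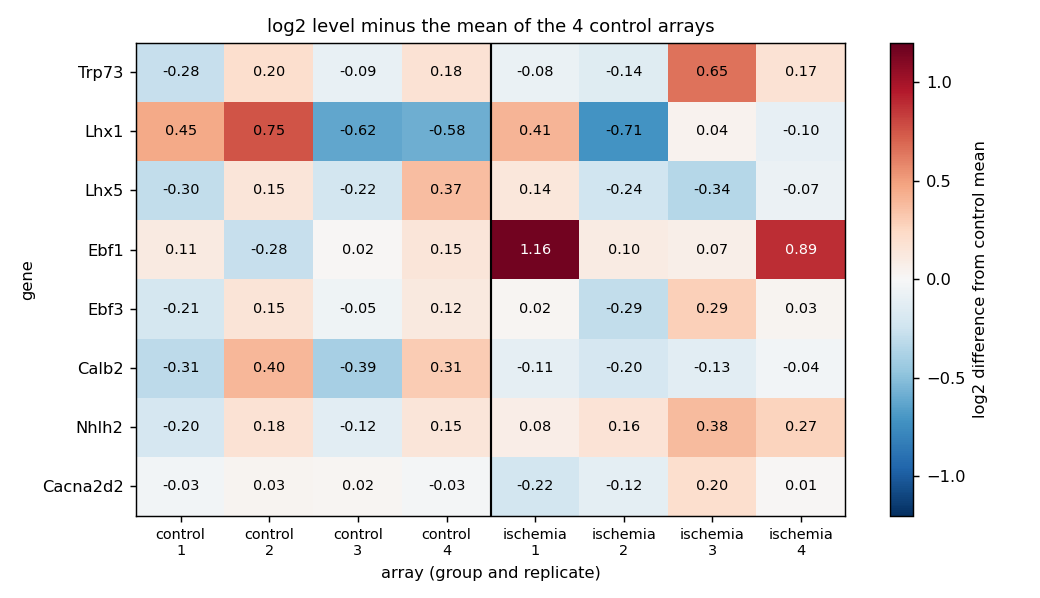
Level of each of the 8 measured genes (rows) in each array (columns), as log2 level minus the mean of the control arrays; red is above and blue below that mean. Calb2 is above the mean in control replicates 2 and 4 and below it in 1 and 3, by 0.31 to 0.40, and the highest values in the map, 1.16 and 0.89, are those of Ebf1 in ischemia replicates 1 and 4.

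Likeness among the genes was loose. Each gene was set against the mean of the other genes of the set well above background on all 8 arrays, a mean without Lhx1. The Pearson correlation over the 8 arrays was 0.74 for Ebf3, 0.68 for Nhlh2, 0.55 for Trp73 and 0.50 for Calb2. It was 0.41 for Lhx5, 0.20 for Lhx1, 0.07 for Cacna2d2 and -0.09 for Ebf1. These are descriptions over 8 arrays that share scaling and batch. Of 14460 genes with a symbol that were ranked against the mean of the 7 genes measured on all arrays, 28, or 0.194%, reached 0.9. Among the 5 closest were Scfd1 (0.98), which serves vesicle traffic between endoplasmic reticulum and Golgi, Clstn1 (0.98), a calsyntenin of neuronal membranes, Ttpal (0.97) and Apmap (0.95). Their Spearman correlations were lower, between 0.71 and 0.93, and their differences between groups were 0.05 to 0.06 with SE of 0.07 to 0.09.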

How the data were processed

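Total RNA from the cortex of 8 pups, 4 per group, was labelled with Cy3 from 50 ng and hybridised to one-colour Agilent 8x60K mouse arrays, per the labels' protocols and the file headers. Agilent Feature Extraction 10.7.3.1 read the scans, per the submitters' processing notes. The intensities that the authors deposited are on a linear scale: the processed signal, already background-corrected by the software, and the mean and median local background signals, used for an alternative. The authors' deposited value table is a ratio. Each of its columns is proportional to the processed signal, with a deviation below 0.01%, and the column medians lay between 0.0836 and 0.1003. The sources used here do not say what the factor of each array is, and values run in the direction of the signal.

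Of 59305 non-control spots per array, those flagged as outliers (134 to 144 in control, 165 to 189 in ischemia) were left out, which dropped 26 probes and touched 0 probes of the set. Spots of a probe were averaged, and levels are log2 of the processed signal minus log2 of the array's 75th percentile. A probe was kept when well above background on at least 4 arrays (27147 probes), and the brightest kept probe stood for a gene (19763 genes). Groups were compared with limma 3.58.1 in R 4.3.3 (lmFit and eBayes, two-sided, no covariates), adjusted over all genes; values of further probes come from the same fit over all kept probes. On simulated data the fit recovered 76% of genes changed by 1 log2 unit and 99% of those changed by 2, among 19763 genes. The simulation changed many genes at once, which makes the adjusted threshold easier to pass than in these data, where 1 gene passed. Its rates therefore do not give the power for the genes of the set. The number of arrays limits the precision.

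Names came from RefSeq genes of GRCm38.p6 (27229 probes by accession, 3586 by current and 565 by older symbol; 24301 kept the file's name). Coordinates are mm9, as in the files; exon and UTR positions were not analysed here. The members and lists were chosen with earlier results of these data known. Besides the set, every list's passing genes, or in their absence the 2 of smallest unadjusted p, are named, with Reln, Cxcr4, Cxcl12 and the 5 genes most like the set; other genes were chosen after their values were seen. Some genes that this rule names are not reported here. As alternatives, the background correction, the scaling, the filter, the probe rule and the variance model were changed, the replicate number was used as a block, the authors' table replaced the scanner values, and each array was left out in turn.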

Additional observations from a re-analysis of the deposited data

Results flagged for a closer look

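Each set of 4 arrays was checked for an array that stood apart, by Dixon's ratio of the gap between that array and its neighbour to the whole range. Of 98 sets 6 were past the 95% critical value, where chance gives about 4.9. No probe of the 9 genes was among them. The ratio was 0.853 for Lmo2 in control (replicate 1 high), 0.854 for Zfp521 in control (replicate 3 low) and 0.879 for Tnnt1 in ischemia (replicate 3 low). For Reln it was 0.897 (control replicate 1 low). Among the genes most like the set it was 0.876 for Scfd1 and 0.877 for Clstn1, both with ischemia replicate 2 low.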

How the results depend on the processing

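Under all 18 alternatives, 0 genes of the set passed the threshold and 0 had groups without overlap. The median difference of the set lay between -0.10 and 0.11, against -0.01 in the main setting. Within groups, the median level of the set on single arrays had an SD of 0.16. A difference between group means varies less than that, so this SD does not show the shifts to be small. Of the 8, 2 to 6 were higher in ischemia, against 4 in the main setting. The count of all genes past the threshold was 1 in the main setting and with the authors' table or the mean of a gene's probes. It was 0 with normexp, quantile normalization, either other filter, the replicate block or ischemia replicates 1 and 4 left out together, 2 with median scaling, 19 with a trended and robust variance model, and 0 to 1 with single arrays left out (1 without ischemia replicate 4). The cause was not tested. Same-numbered arrays of the groups deviated together with correlations of 0.08, -0.05, 0.29 and 0.39, and differently numbered arrays with -0.23 to 0.18. Numbers 3 and 4 thus correlated above every differently numbered pair, and the reason was not tested. The labels do not give the numbers as pairs, and the main setting did not take them as such. With the replicate number as a block the lowest limma adjusted p in the set was 0.343 (Ebf1). Signs turned for small differences. Cacna2d2 was 0.00997 with normexp. With the mean of all probes Trp73 was -0.12, Cxcl12 0.049, Zfp521 -0.13, Cacna1d -0.058 and Cacna1i -0.15. Without ischemia replicates 1 and 4 together, an alternative added after seeing the data, Ebf3 was -0.0021, Cacna2d2 0.039, Zfp521 -0.066, Scfd1 -0.0058 and Apmap -0.0062. With single arrays left out the ranges were -0.018 to 0.25 for Trp73, -0.30 to 0.16 for Lhx1, -0.0799 to 0.11 for Ebf3, -0.25 to 0.014 for Calb2, -0.11 to 0.031 for Cacna2d2, -0.094 to 0.053 for Cxcl12, -0.071 to 0.12 for Trp63, -0.066 to 0.11 for Zfp521, -0.15 to 0.13 for Calb1, -0.041 to 0.22 for Ppp1r1b, -0.0401 to 0.28 for Dnah5, -0.029 to 0.0597 for Cxcr4 and -0.00053 to 0.10 for Apmap. Lhx1, near background, has the widest spread of the set, and Ebf2 was below what these arrays detect.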
